A study of Mus musculus with 64 samples.

Results

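The transcripts described here encode voltage-gated and potassium channel subunits and the proteins that assemble with them in mouse striatum. They were chosen by name and level: every gene symbol in the count files that starts with Kcn and a letter, with Cacna, Cacnb or Cacng, or with Scn or Hcn and a digit, leaving out Kcnj4 and Kcnj8, and reaching at least 1 CPM in at least 8 of 16 libraries. CPM is the read count of a gene scaled to a common total of gene reads per library. Of 23420 genes in the files 139 had such a symbol, 137 remained after the exclusions, and 112 passed the level. Measured levels therefore chose the 112 genes, so their abundance is given as a description with no test.

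Each of these channels is a pore made by alpha subunits, with smaller partners that set its surface number, its voltage range and its speed. Sodium channels start the action potential, calcium channels couple depolarisation to calcium entry, and potassium channels return the membrane to rest and set its excitability. Projection neurons of the striatum are known for a very negative resting potential held by inward rectifier channels, for a delayed first spike set by A-type potassium current, and for a high content of the sodium channel beta subunit Scn4b. Ppp1r1b encodes DARPP-32, a phosphatase inhibitor concentrated in those neurons, and Csnk1e encodes casein kinase 1 epsilon, a kinase of the circadian clock.

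Striatal tissue came from 16 untreated mice about 50 days old, 8 labelled Csnk1e knockout and 8 labelled wild type. Punches from the left and right hemisphere of a mouse were pooled, and the punch width is given as 3 mm in one label and 2.5 mm in another. Poly(A) RNA was made into stranded libraries and read for 50 bases from one end, each in 4 lanes over 2 flow cells. Strain, sex and the extent of the Csnk1e deletion were not stated in the labels. Gene reads per mouse ran from 22088005 to 30238947 with lanes summed.

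The targeted gene did not follow the labels. Csnk1e ran from 38.0 to 79.5 CPM with a median of 73.8 in the libraries labelled knockout, and from 42.1 to 86.2 CPM with a median of 58.5 in those labelled wild type. All 16 values lay either at 44.9 CPM and below, in 7 libraries, or at 72.2 CPM and above, in 9 libraries, and both labels occurred on both sides. A direction drawn from the labels is therefore a direction between labels. Libraries are called labelled knockout 1 to 8 and labelled wild type 1 to 8.

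Ppp1r1b, the transcript to which channel levels are related below, ran from 855 to 1403 CPM. The lowest values were 855, 861 and 865 CPM in labelled wild type 6, 2 and 4, and the highest were 1403 CPM in labelled wild type 5 and 1275 and 1273 CPM in labelled knockout 2 and 1. Libraries of both labels were spread along this range. The 15 listed markers of striatal projection neurons, a check of the tissue label, summed to between 5716 and 9519 CPM and each had a mean of at least 1 CPM. Choroid plexus markers were high in labelled knockout 1 and labelled wild type 7, where the summed level of 8 listed markers was 1631 and 2376 CPM against a median of 23.4 CPM over all libraries.

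Levels of different genes were compared per kb of exon, as CPM divided by the summed exon length in kb. The 112 genes had a median of 7.58 CPM per kb, 50 of them stood at 10 or more, and 16 stood below 1. Auxiliary subunits of sodium, potassium and calcium channels were prominent at the top of the list.

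**Figure D1:**
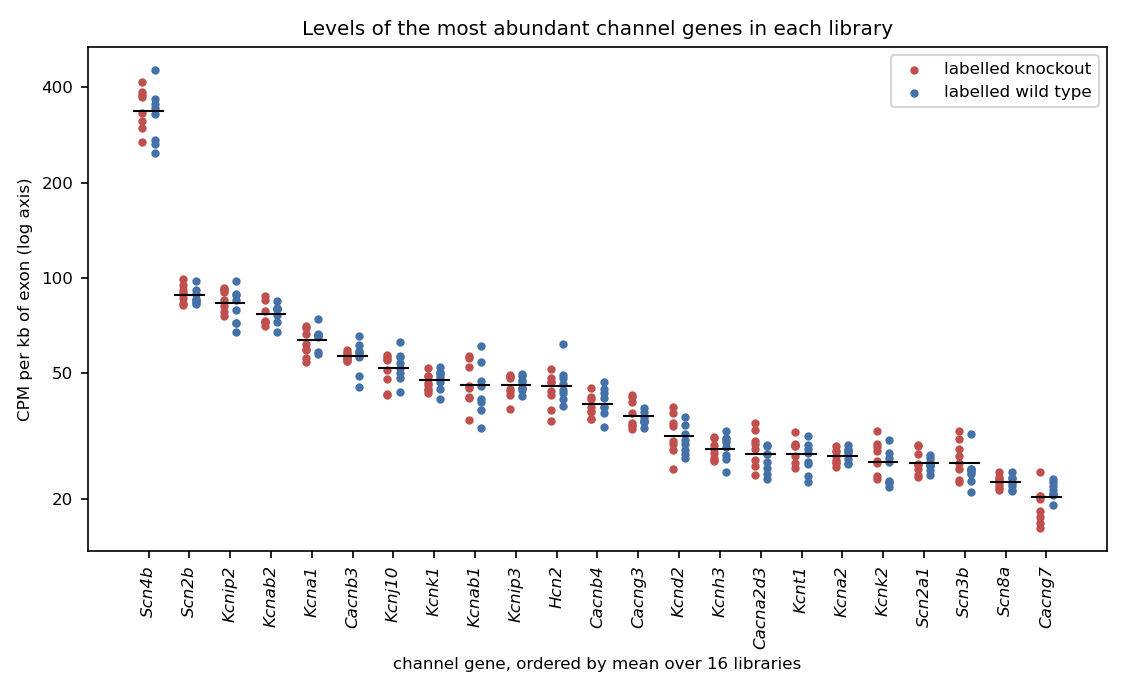
CPM per kb of exon on a log axis for 23 of the 25 channel genes with the highest mean level, 1 point per library (8 labelled knockout, 8 labelled wild type), with the mean over 16 libraries as a bar. Scn4b stands above every other gene plotted in every library, and the points of both labels overlap for each gene.

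Scn4b, whose cytoplasmic tail can block the open sodium channel and give resurgent current, was the most abundant channel transcript at 338 ± 58.2 CPM per kb (SD, n = 16). In CPM it ran from 1238 in labelled wild type 4 to 2264 in labelled wild type 5, with a median of 1689. Scn2b, a beta subunit bound to the alpha subunit by a disulfide bond, stood at 88.6 ± 5.36 and Scn3b at 26.0 ± 3.53 CPM per kb (SD, n = 16). The ordering of Scn4b above Scn2b held in every library, since their ranges over libraries did not touch.

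Pore-forming sodium channel genes were lower and closer together. Scn2a1, the alpha subunit of unmyelinated and early axon segments, stood at 26.1 ± 1.85 and Scn8a, the alpha subunit of the mature axon initial segment and nodes, at 22.7 ± 1.02 CPM per kb (SD, n = 16). Scn1a, known mainly from inhibitory interneurons, reached 14.8 ± 1.35 and Scn3a 7.51 ± 1.02 CPM per kb (SD, n = 16). Scn9a and Scn7a, the sodium channels of sensory neurons and glia, stood at 0.604 and 0.303 CPM per kb.

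Among potassium channel genes, those for the partners of A-type and axonal channels led. Kcnip2, a calcium-binding partner of Kv4 channels, stood at 83.7 ± 8.85 CPM per kb, against 31.7 ± 4.00 for Kcnd2, the Kv4 pore subunit (SD, n = 16). Kcnab2 and Kcnab1, beta subunits that speed inactivation or trafficking of Kv1 channels, stood at 77.1 ± 5.69 and 46.0 ± 7.98 CPM per kb (SD, n = 16). Kcna1 and Kcna2, axonal Kv1 pore subunits, stood at 63.7 ± 5.70 and 27.5 ± 1.38 CPM per kb (SD, n = 16). Kcnt1, a sodium-activated potassium channel, stood at 27.9 ± 2.80 CPM per kb (SD, n = 16), which differs from Kcna2 by less than the spread between mice.

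Leak and inward rectifier channels each had 1 leading gene. Kcnj10, the inward rectifier of astrocytes and oligodendrocytes, stood at 52.1 ± 5.73 CPM per kb and was the only inward rectifier among the 25 highest genes. Kcnj2, a strong inward rectifier of projection neurons, reached 10.8 ± 1.25 CPM per kb (SD, n = 16). Kcnk1 led the K2P leak channels at 47.6 ± 3.21, followed by Kcnk2, a leak channel opened by stretch and lipids, at 26.3 ± 3.33 CPM per kb (SD, n = 16). Hcn2, a cAMP-sensitive pacemaker channel, stood at 45.5 ± 6.18 CPM per kb (SD, n = 16).

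Calcium channel genes were led by their auxiliary subunits. Cacnb3 and Cacnb4, cytoplasmic beta subunits that bring the pore to the membrane, stood at 56.6 ± 4.63 and 40.1 ± 3.67 CPM per kb (SD, n = 16). Cacng3, which escorts AMPA receptors rather than gating calcium channels, stood at 36.7 ± 2.93 and Cacna2d3, an extracellular alpha2delta subunit, at 27.9 ± 3.30 CPM per kb (SD, n = 16). No pore subunit was among the 25 highest genes. The highest of them, Cacna1i of the T-type, Cacna1e of the R-type, Cacna1a of the P/Q-type and Cacna1h of the T-type, stood at 15.7, 13.4, 12.6 and 12 CPM per kb.

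At the level that defined the set, the lowest genes inside were Kcnrg, Cacng1, Kcne4, Kcnmb1 and Kcng2, with means between 1.29 and 1.92 CPM. Kcnrg, which hinders assembly of Kv channels, was at 1 CPM or more in 15 libraries, and the other 111 genes were in all 16. Just outside were Kcnk5, Cacna1s and Kcnj5 with medians of 0.698, 0.72 and 0.702 CPM, and Kcnj13 and Kcne2, which passed 1 CPM in 2 libraries each. Kcnj13 and Kcne2, an inward rectifier and a single-span subunit known from choroid plexus epithelium, reached 14.5 and 8.91 CPM in labelled knockout 1 and 27.0 and 15.5 CPM in labelled wild type 7, the libraries with choroid plexus markers. One of the 25 genes below the level, Kcnk16, had no read in any library. Kcnq1ot1 matched the symbol pattern but is a noncoding RNA antisense to Kcnq1, and reads of those genes may not be told apart.

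The channel genes had a larger spread between mice than the median gene. The biological coefficient of variation, edgeR's estimate of the spread beyond counting error, had a median of 11.4% over the 112 genes and 8.60% over all 15446 genes tested. It lay above the trend for genes of the same abundance in 57 of 112 (50.9%), against 25.2% of all genes. Across libraries the highest value was at least 2 times the lowest in 19 genes and under 1.5 times the lowest in 45. Scn8a was among the steadiest relative to that trend, from 335 to 386 CPM with a median of 358 and a ratio of 0.60 to the trend. Kcnj12, Kcnrg, Kcnu1 and Kcnd1 were the others of the 5 lowest ratios, between 0.47 and 0.61.

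Kcnab3, the remaining Kv1 beta subunit, had the largest spread relative to the trend. It ran from 13.6 CPM in labelled knockout 8 to 47.8 CPM in labelled knockout 7, with a median of 30.7 and a ratio of 3.35. Its values in the libraries labelled wild type, 24.4 to 38.6 CPM, lay inside that range. An exon of Kcnab3 overlaps a gene on the other strand, and reads of such a pair may not be told apart. Kcng4, Kcnj3, Kcnh7 and Kcnj6 followed with ratios of 2.58, 2.21, 2.09 and 2.07. Kcng4, a silent subunit that modifies Kv2 channels, ran from 2.77 to 10.8 CPM.

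Much of the variation was shared. The first principal component of the 112 genes held 44.9% of their variance over the 16 libraries, the second 16.8% and the third 8.41%. All 7 libraries with the lowest Ppp1r1b had a negative score on the first component. Of the 9 with the highest Ppp1r1b, 8 had a positive score, and labelled wild type 8 had a score of -1.04. The cut after 7 libraries lies where the score first changes sign along Ppp1r1b. It therefore matches the observed split, and these counts describe the order of the libraries without testing it. Which end of a component is positive is arbitrary.

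The study was designed to compare the labelled genotypes, and no channel gene differed between them by edgeR's quasi-likelihood test. None of 112 passed an adjusted p of 0.05 (Benjamini-Hochberg over all genes tested), where 0% of all 15446 genes were called, and DESeq2 called none either. At an unadjusted p under 0.05 edgeR passed 10 of the 112 (8.93%), against 3.41% of all genes, and DESeq2 also passed 10. With the library number of the labels as a covariate edgeR passed 1. The median log2 difference, labelled knockout minus labelled wild type, was -0.00 over the channel genes and 0.00 over all genes, with medians of its absolute value of 0.08 and 0.05. Because Csnk1e lay on both sides of its gap within each label, this comparison is one of labels.

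The genes with the smallest unadjusted p in that comparison overlapped between labels. Kcnk12, a K2P channel with little current of its own, ran from 1.36 to 2.95 CPM with a median of 1.66 in libraries labelled knockout, and from 1.66 to 3.81 CPM with a median of 2.41 in those labelled wild type. Its log2 difference was -0.52 (SE 0.19, edgeR adjusted p 0.997). Cacna1e, the R-type calcium channel pore, had medians of 357 and 317 CPM over ranges of 312 to 419 and 279 to 366 CPM. That difference was 0.19 (SE 0.07, edgeR adjusted p 0.997). The same adjusted p held for Kcnh6, Kcnmb2, Kcng3, Kcnj12, Cacna1d and Kcnip1, whose log2 differences ran from -0.41 in Kcnmb2, a BK channel beta subunit, to 0.31 in Kcnh6, an ERG-type potassium channel. The groups overlapped in all 8 genes.

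Channel levels did follow Ppp1r1b. In edgeR's quasi-likelihood fit of each gene on log2 Ppp1r1b over the 16 libraries, 43 of 112 genes (38.4%) were called at an adjusted p under 0.05, against 14.5% of all 15446 genes. Among them 23 rose with Ppp1r1b (20.5%), where 7.58% of all genes did, and 20 fell (17.9%), where 6.91% did. A slope is the log2 change of a gene for each log2 unit of Ppp1r1b, so that 1 means change in proportion. Called slopes beyond 0.5 in size were found in 36 channel genes (32.1%), against 7.92% of all genes. The median absolute slope was 0.42 over the channel genes and 0.18 over all genes, and the median signed slopes were -0.03 and 0.02. These shares describe the set beside all genes and carry no test of the set. Without labelled wild type 6 the rising genes numbered 15, where 9.45% of all genes were called. Without it and labelled wild type 2, the libraries farthest from the median of Ppp1r1b, 12 rose and 8 fell, where 6.53% were called. The punches are bulk tissue, so fewer cells of a type and less of its RNA per cell cannot be told apart in any of these slopes.

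Calcium and sodium channel genes that were called mostly rose, and potassium channel genes went both ways. Of 23 genes with calcium channel symbols 10 rose and 1 fell. These include 6 that escort AMPA receptors, of which Cacng4 alone was called, and it rose. Of 11 sodium channel genes 3 rose and none fell, and of 72 potassium channel genes 10 rose and 18 fell. Among all genes the shares were 7.58% rising and 6.91% falling. Neither Kcnrg nor Kcnq1ot1 was called. The difference between kinds of channel was not tested.

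**Figure D2:**
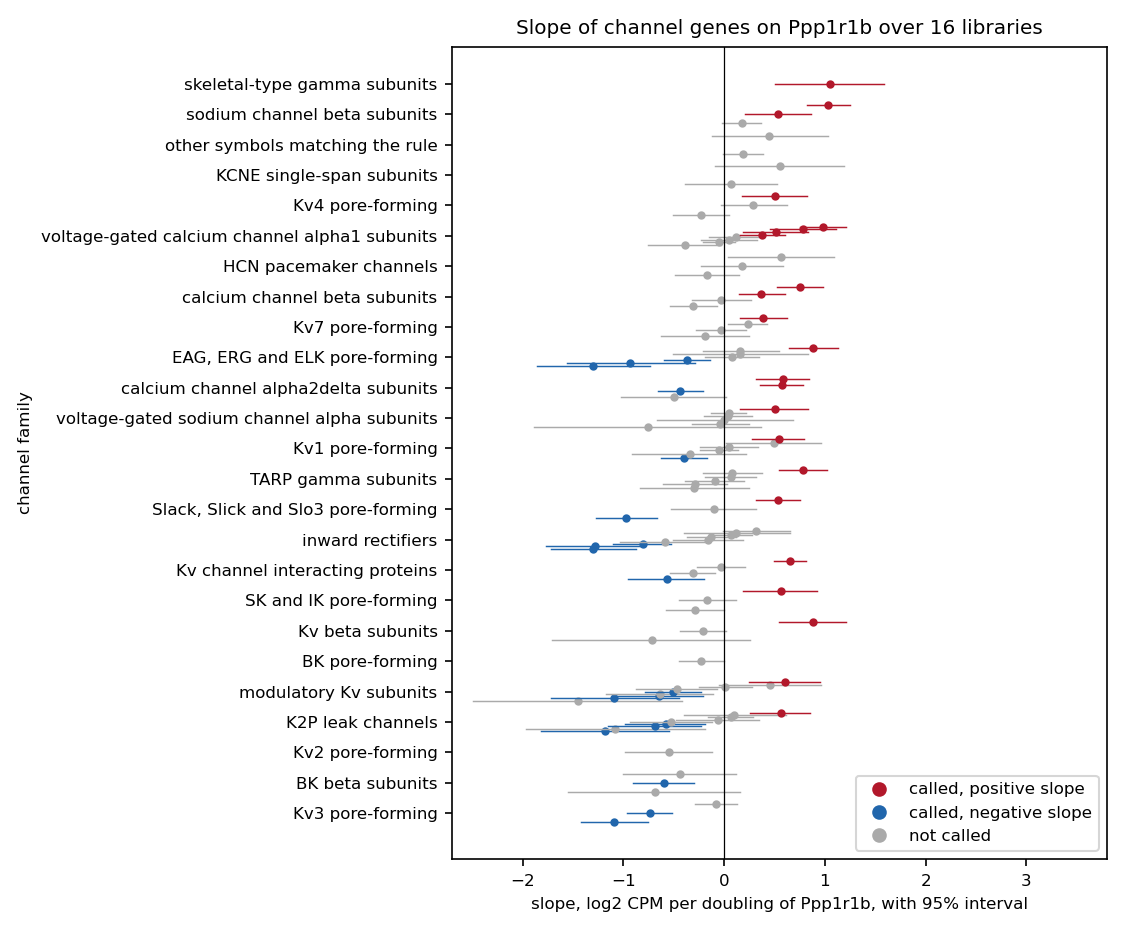
Slope of 107 of the 112 channel genes on log2 Ppp1r1b (x axis, log2 CPM per log2 unit of Ppp1r1b) with its 95% interval, grouped by channel family on the y axis; red and blue mark called positive and negative slopes. Calcium channel alpha1 subunits have 4 called positive slopes and no called negative one, and inward rectifiers have 3 called negative slopes and no called positive one.

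Scn4b had the smallest adjusted p. Its 3 lowest values, 1238, 1317 and 1344 CPM, were in labelled wild type 4 and 6 and labelled knockout 7, and its 3 highest, 2264, 2077 and 1924 CPM, in labelled wild type 5 and labelled knockout 2 and 1. Apart from labelled knockout 7 these are the libraries at the ends of the Ppp1r1b range. The slope was 1.03 (SE 0.10, edgeR adjusted p 4.06e-06), in proportion to Ppp1r1b within its error. Scn3b and Scn3a also rose, with slopes of 0.53 and 0.50. Scn2b, at 0.18 (SE 0.09, edgeR adjusted p 0.222), did not pass the test.

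Calcium channel pores rose in 4 of 8 cases, where 7.58% of all genes rose. Cacna1h, a T-type pore that opens near the resting potential, ran from 90.7 CPM in labelled wild type 2 and 6 to 144 CPM in labelled wild type 5 and labelled knockout 2 and 6, with a median of 118. Its values were under 100 CPM in the 5 libraries lowest in Ppp1r1b and in no other. The slope was 0.98 (SE 0.11, edgeR adjusted p 1.38e-05). Cacna1c, the main L-type pore, ran from 44.5 to 77.1 CPM with a median of 58.8 and had a slope of 0.78 (SE 0.16, edgeR adjusted p 0.00208). Cacna1e and Cacna1i rose with slopes of 0.51 and 0.38. Cacna1a and Cacna1b, the pores of presynaptic calcium entry, had slopes of -0.05 and 0.05, and Cacna1d, the other L-type pore, 0.12 (SE 0.13, edgeR adjusted p 0.604).

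Several auxiliary calcium channel subunits rose with them. Cacnb2 ran from 62.2 to 95 CPM with a median of 76.6 and had a slope of 0.75 (SE 0.11, edgeR adjusted p 0.000151), and Cacnb1 had one of 0.37, while Cacnb3 and Cacnb4 were not called at -0.31 and -0.03. Among alpha2delta subunits Cacna2d3 and Cacna2d2 rose with slopes of 0.58 and 0.57, and Cacna2d1 fell with a slope of -0.44. Cacng4 was the 1 called gene of 6 that escort AMPA receptors, from 22.8 to 36.1 CPM with a slope of 0.78 (SE 0.11, edgeR adjusted p 0.000158). Cacng1, the gamma subunit of the skeletal muscle channel, had a slope of 1.05 (SE 0.26, edgeR adjusted p 0.0100), but at levels of 1.08 to 2.01 CPM.

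Genes of Kv4 channels, which carry A-type potassium current, went both ways. Of 4 Kv channel interacting proteins 1 rose and 1 fell, and of 3 Kv4 pores 1 rose. Counts this small say little beside the 7.58% of all genes that rose and 6.91% that fell. Kcnip2 ran from 235 CPM in labelled wild type 6 to 340 CPM in labelled wild type 5, with a median of 297. Its slope was 0.65 (SE 0.08, edgeR adjusted p 1.76e-05). Its relative Kcnip1 fell with a slope of -0.57 (SE 0.18, edgeR adjusted p 0.0343), while Kcnip3 and Kcnip4 were not called at -0.03 and -0.31. Kcnd2 rose with a slope of 0.50, whereas Kcnd1 and Kcnd3 were not called at 0.29 and -0.23. Kcna4, an A-type pore of the Kv1 family, rose with a slope of 0.54. Kcnab1, the Kv1 beta subunit, ran from 288 to 524 CPM and had a slope of 0.88 (SE 0.16, edgeR adjusted p 0.00110), and its relative Kcnab2 one of -0.21 (SE 0.11, edgeR adjusted p 0.223). Kcnh4, an ELK-type channel of the forebrain, ran from 46.8 to 78.2 CPM with a slope of 0.88 (SE 0.12, edgeR adjusted p 6.34e-05). Kcng1, a silent modulator of Kv2 channels, had a slope of 0.60, and Kcnt1, Kcnk2, Kcnn3 and Kcnq3 had slopes of 0.53, 0.56, 0.56 and 0.39.

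**Figure D3:**
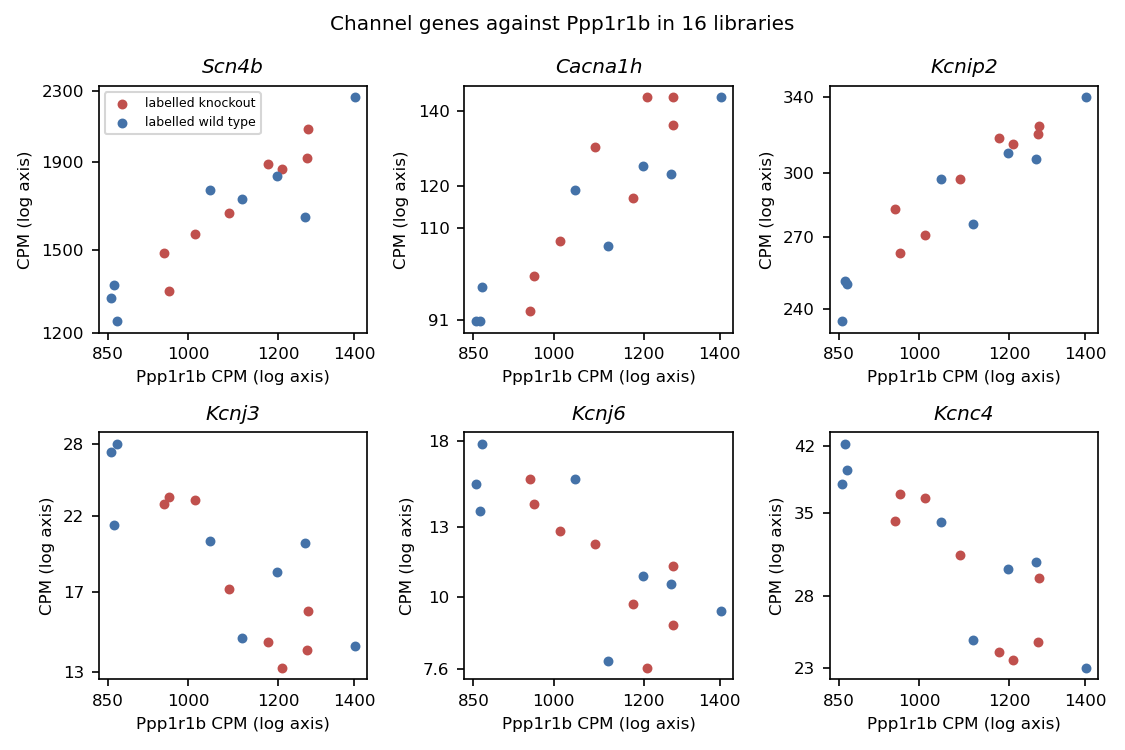
CPM of 6 channel genes (y axis, log) against CPM of Ppp1r1b (x axis, log), 1 point per library, coloured by label. Scn4b, Cacna1h and Kcnip2 rise and Kcnj3, Kcnj6 and Kcnc4 fall along Ppp1r1b, with points of both labels mixed along each trend.

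Kcnj3 and Kcnj6 were among the steepest called falls, and Kcnj9 fell less steeply. They encode G protein-gated inward rectifiers, which open when Gi/o-coupled receptors release their beta-gamma subunits. Kcnj3 ran from 13.2 CPM in labelled knockout 6 to 28.0 CPM in labelled wild type 4, with a median of 19.1. It was at or above 20.1 CPM in all 7 libraries lowest in Ppp1r1b, and in the 9 others it reached that level in labelled wild type 8 alone. The slope was -1.30 (SE 0.20, edgeR adjusted p 0.000298). Kcnj6 ran from 7.64 to 17.8 CPM with a median of 11.7 and a slope of -1.28 (SE 0.23, edgeR adjusted p 0.000943). Kcnj9 ran from 62.0 to 98.1 CPM with a median of 78.7 and a slope of -0.81 (SE 0.14, edgeR adjusted p 0.000580). The other 6 inward rectifiers were not called, with slopes from -0.59 in Kcnj16 to 0.32 in Kcnj2. Exons of Kcnj3, Kcnj6 and Kcnj9, as of Kcnh7, Kcnt2, Kcnab1, Cacnb2 and Cacna1h, overlap a gene on the other strand, and the labels do not say how strand was used in counting.

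Genes of fast-spiking and of other voltage-gated potassium channels fell as well. Kcnc4, a Kv3 pore, ran from 23.0 CPM in labelled wild type 5 to 42.3 CPM in labelled wild type 2, with a slope of -1.09 (SE 0.16, edgeR adjusted p 0.000142). Kcnc2 had a slope of -0.74 (SE 0.11, edgeR adjusted p 0.000130), while Kcnc1 was not called at -0.08. Kcnh7, an ERG-type channel, ran from 6.59 to 17.9 CPM and had a slope of -1.30 (SE 0.27, edgeR adjusted p 0.00282). Its family held both directions, since Kcnh4 rose and Kcnh1 and Kcnh5 fell with slopes of -0.37 and -0.93. Kcnt2 fell with a slope of -0.97 (SE 0.14, edgeR adjusted p 0.000167), opposite in sign to its relative Kcnt1.

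Leak and modulatory genes completed the falling group. Kcnk4, a stretch-sensitive K2P channel, ran from 3.72 to 9.24 CPM with a slope of -1.18 (SE 0.30, edgeR adjusted p 0.0124), and the acid-sensitive Kcnk3 and Kcnk9 had slopes of -0.69 and -0.58. The pacemaker channel gene Hcn2 had a slope of 0.18 (SE 0.19, edgeR adjusted p 0.599). Kcng2, Kcns3 and Kcnf1, silent modulators of Kv2 channels, had slopes of -1.09, -0.65 and -0.51, and Kcnmb4, the neuronal BK beta subunit, -0.60. Kcng2 was near the detection level, at 1.21 to 2.76 CPM.

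**Figure D4:**
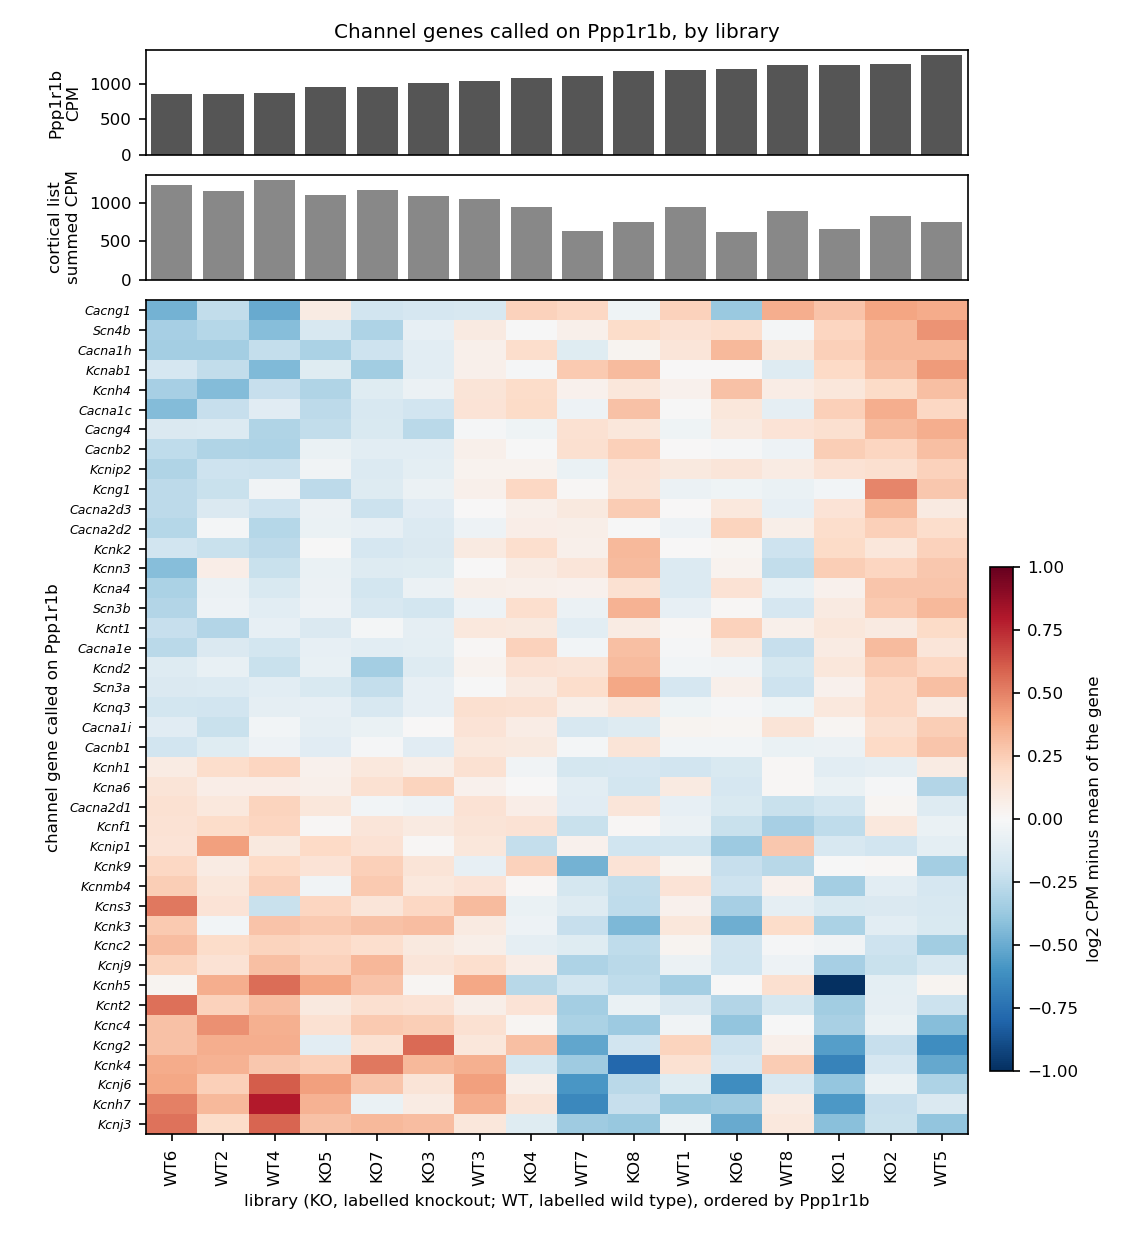
log2 CPM minus the gene's mean (colour, from -1 to 1) for 42 of the 43 channel genes called on Ppp1r1b, in rows, over 16 libraries ordered by Ppp1r1b, in columns. The bars above give Ppp1r1b from 855 to 1403 CPM and the summed level of 12 cortical excitatory neuron markers from 620 to 1296 CPM, and the 23 rising genes change from blue to red where the 19 falling ones plotted change from red to blue.

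No channel gene was called for a difference of these slopes between labels, which does not show that the slopes are equal. In a fit with a separate slope for each label, 1 of 15446 genes and none of the 112 channel genes had slopes that differed at an edgeR adjusted p under 0.05. At an unadjusted p under 0.05 there were 17 of the 112 channel genes and 1014 of the 15446 genes (6.56%), a larger share among the channel genes. The smallest edgeR adjusted p among the channel genes was 0.699 for Kcnab3, with a difference of -3.12. DESeq2 was not run for this term. In labelled knockout mice alone 13 channel genes rose and 14 fell, where 4.29% of all genes were called. In labelled wild-type mice alone 7 rose and 5 fell, where 3.64% of all genes were called. All 43 slopes kept their sign in both. These genes were chosen by the fit of all 16 libraries, so the agreement in sign is partly built in.

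Cell type markers moved along the same axis. From the same fit, 13 of 14 striatal projection neuron markers other than Ppp1r1b rose, with a median slope of 0.94, and 9 of 12 cortical excitatory neuron markers fell with a median slope of -1.22. The cortical list summed to between 620 and 1175 CPM in libraries labelled knockout and between 640 and 1296 CPM in those labelled wild type, and each of its 12 markers had a mean of at least 1 CPM. Striatal interneuron markers were divided, with 4 of 12 up and 3 down, and septal and thalamic markers had 1 up and 2 down of 8. Of 12 oligodendrocyte markers, 8 astrocyte markers and 10 microglial markers none was called. With 14.5% of all genes called, lists of this size would hold few called genes, so this says little of those cell types. Choroid plexus markers had a median slope of 3.98 with none of 6 called.

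With the score of the cortical list as a covariate, the called slopes on Ppp1r1b were reduced to 4 rising channel genes and no falling one, where 0.589% of all genes were called. The 4 were Scn4b, Cacna1h, Kcnip2 and Cacna1i, and the slopes of the first 3 were 0.92, 1.00 and 0.68, near their values without the covariate. Slopes of Kcnj3, Kcnj9 and Kcnh7 became -0.20, -0.10 and -0.03, and those of 4 falling genes turned positive without being called, at 0.05 in Kcnj6, 0.06 in Kcnh1, 0.09 in Kcnmb4 and 0.47 in Kcnk3. The cortical score and Ppp1r1b run against each other in these punches, so the fit has less information on either. With the oligodendrocyte score as a covariate 24 channel genes rose and 25 fell, and the share of all genes called was 17.6% in place of 14.5%.

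Proteins that anchor or modulate the channels without sharing their names also went both ways. Of 30 such genes, among them ankyrins, fibroblast growth factor homologues and Dpp proteins, 5 rose and 8 fell with Ppp1r1b. Of all genes 7.58% rose and 6.91% fell. The median slope of the 30 was -0.04. Dpp10, a partner of Kv4 channels, fell with a slope of -1.25 (SE 0.11, edgeR adjusted p 7.14e-07), while its relative Dpp6, also a Kv4 partner, rose with a slope of 0.36 (SE 0.09, edgeR adjusted p 0.0109). Fgf12, an intracellular partner of sodium channels, fell with a slope of -0.68 (SE 0.10, edgeR adjusted p 0.000146). Rem2, a small GTPase that inhibits calcium channels, rose with a slope of 0.74 (SE 0.12, edgeR adjusted p 0.000425).

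To show the promoters of genes that moved in opposite directions, the 250 bases upstream of the RefSeq start are printed for 2 rising and 2 falling genes with the smallest p whose window is single and free of annotated exons. The sequences are from RefSeq on build GRCm38.p6, read 5′ to 3′ on the strand of the gene. Capitals mark matches on either strand to 4 motifs that were searched, the GC box GGGCGG, the TATA box TATAAA, the E-box CACGTG and the cAMP response element TGACGTCA. Kcnip2 lies at chr19:45816064-45816313, Cacna2d3 at chr14:29721865-29722114, Kcnj9 at chr1:172329323-172329572 and Kcnh7 at chr2:63184288-63184537, all on the minus strand.
Kcnip2: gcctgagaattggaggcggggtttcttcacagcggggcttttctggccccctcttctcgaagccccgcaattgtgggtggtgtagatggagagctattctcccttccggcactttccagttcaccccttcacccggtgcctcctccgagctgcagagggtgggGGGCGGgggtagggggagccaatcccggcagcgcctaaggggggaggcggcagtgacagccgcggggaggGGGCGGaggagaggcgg
Cacna2d3: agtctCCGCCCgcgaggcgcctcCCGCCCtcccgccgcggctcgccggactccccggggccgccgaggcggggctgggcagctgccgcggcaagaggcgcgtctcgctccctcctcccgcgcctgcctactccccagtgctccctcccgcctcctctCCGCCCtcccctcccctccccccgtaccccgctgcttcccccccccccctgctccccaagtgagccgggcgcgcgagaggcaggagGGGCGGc
Kcnj9: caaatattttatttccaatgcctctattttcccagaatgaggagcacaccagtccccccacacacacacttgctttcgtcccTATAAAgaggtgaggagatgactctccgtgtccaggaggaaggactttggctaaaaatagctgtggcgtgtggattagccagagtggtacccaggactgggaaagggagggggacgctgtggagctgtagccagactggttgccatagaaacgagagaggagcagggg
Kcnh7: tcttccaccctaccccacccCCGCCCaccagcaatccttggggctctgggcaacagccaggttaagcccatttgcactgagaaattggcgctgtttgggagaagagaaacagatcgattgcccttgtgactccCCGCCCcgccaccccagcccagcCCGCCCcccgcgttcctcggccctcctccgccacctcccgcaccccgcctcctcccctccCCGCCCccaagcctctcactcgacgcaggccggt

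The Kcnip2 window held 2 GC boxes, the Cacna2d3 and Kcnh7 windows 4 each, and the Kcnj9 window held a TATA box and no GC box. GC content was 66.8% for Kcnip2, 80.0% for Cacna2d3, 67.6% for Kcnh7 and 52.0% for Kcnj9. RefSeq windows were found for 78 of the 112 genes, 112 windows in all, out of 32851 for the whole table. The GC box was in 42.9% of the channel gene windows and 32.7% of all windows, the TATA box in 3.57% and 12.4%, the E-box in 4.46% and 6.02%, and the cAMP response element in none and 1.55%. Among windows of genes that rose with Ppp1r1b the GC box was in 45.8%, and among those of genes that fell in 52.2%. The windows of 1 gene share sequence, and a match of letters is not a binding site.

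The relation to Csnk1e was read within each side of its gap, with the side as a term, because a line drawn across separate groups would measure the gap. In that edgeR fit 41 of 112 channel genes (36.6%) were called, against 11.4% of all genes. Of these, 23 rose with Csnk1e (20.5%), where 6.07% of all genes did, and 18 fell (16.1%), where 5.33% did. Among the 41 called genes, 34 were also called on Ppp1r1b, all 34 with the opposite sign. The median absolute slope was 1.00 over the channel genes and 0.48 over all genes, per log2 unit of Csnk1e. The sides themselves ran only from 38.0 to 44.9 and from 72.2 to 86.2 CPM, far less than one log2 unit, so such a slope describes a longer step than any observed.

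The 4 genes with the smallest p all rose with Csnk1e. Kcnj3 lay at 13.2 to 14.4 CPM in the 2 libraries with the lowest Csnk1e, at 38.0 and 39.2 CPM, and at 18.2 to 23.4 CPM in the other 5 of the low side. On the high side Kcnj3 lay at 14 and 14.6 CPM in labelled knockout 1 and labelled wild type 7, where Csnk1e was 72.2 CPM. It lay at 27.2 and 28.0 CPM in labelled wild type 6 and 4, where Csnk1e was 86.2 and 83.9 CPM. The libraries in between were less ordered. Kcnj3 was 14.2 CPM in labelled wild type 5 and 23.2 CPM in labelled knockout 3, where Csnk1e was 77.9 and 77.2 CPM. The slope was 3.70 (SE 0.48, edgeR adjusted p 0.000164). Kcnmb4, Kcnc4 and Kcnj9 had slopes of 1.96 (SE 0.29), 2.88 (SE 0.45) and 2.24 (SE 0.36), with edgeR adjusted p values of 0.000468, 0.000772 and 0.000839. Among genes that fell, Cacna2d3 had a slope of -1.65 (SE 0.30, edgeR adjusted p 0.00221) and Scn4b one of -2.15 (SE 0.51, edgeR adjusted p 0.0113).

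**Figure D5:**
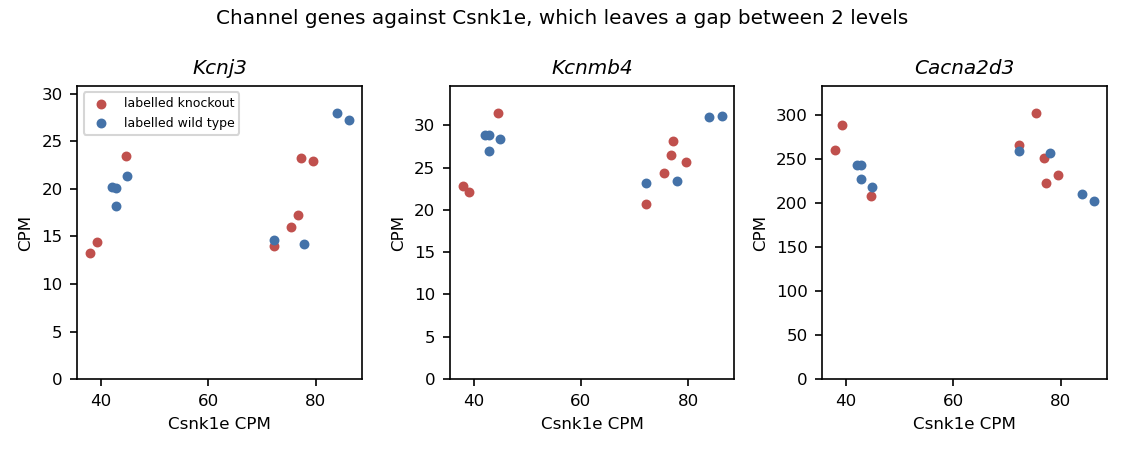
CPM of Kcnj3, Kcnmb4 and Cacna2d3 (y axes from 0) against CPM of Csnk1e (x axis), 1 point per library, coloured by label. No library lies between 44.9 and 72.2 CPM of Csnk1e, and within each side Kcnj3 and Kcnmb4 rise and Cacna2d3 falls.

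Csnk1e and Ppp1r1b had negative coefficients within both sides, of which only Pearson's r on the high side passed an adjusted p of 0.05. Both fits use the same 16 libraries. On the high side Pearson's r was -0.74 (exact permutation p 0.0225, adjusted over both sides 0.0451, n = 9) and Spearman's rho was -0.70 (exact permutation p 0.0433, adjusted 0.0865). Without the 2 libraries farthest from the median of Csnk1e, r was -0.35 (exact permutation p 0.432, n = 7), so the relation on the high side rests on those 2. On the low side r was -0.65 (exact permutation p 0.116, n = 7) and rho was -0.61 (exact permutation p 0.167), and leaving out 2 libraries would leave fewer than 6.

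With log2 Ppp1r1b as a covariate, a fit added after the data were seen, no channel gene was called on Csnk1e within sides, where 0.181% of all genes were called by edgeR. All 41 slopes kept their sign, in the same libraries that chose those genes. An unadjusted p under 0.05 was found in 27 channel genes (24.1%), against 14.7% of all genes. DESeq2 was not run with this covariate. The marker lists moved in the fit without this covariate too, where 5.33% of all genes fell and 6.07% rose. There 13 of 15 striatal projection neuron markers fell with Csnk1e at a median slope of -2.07. Of 12 cortical excitatory markers 9 rose at a median slope of 4.00. All 6 choroid plexus markers tested fell, at a median slope of -18.80. Labelled knockout 1 and labelled wild type 7, the libraries high in these markers, both had 72.2 CPM of Csnk1e. That is the lowest value of the high side, so this slope follows those 2 libraries. Without labelled knockout 1 and labelled wild type 7, 15 channel genes rose and 19 fell, where 6.08% of all genes were called. Without labelled wild type 6 or labelled wild type 4 the falling channel genes numbered 4 or 5 in place of 18. Of all genes 6.05% or 6.4% were called there. Without labelled knockout 1 the counts were 15 rising and 11 falling, where 6.83% of all genes were called. Rising genes numbered 15 without labelled knockout 7, where 7.49% were called. From the lanes of flow cell 2 alone 15 rose and 2 fell, where 4.64% of all genes were called in place of 11.4%.

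Cacna1i and Cacng2 are the channel genes within 5 Mb of Csnk1e on chromosome 15, at 0.83 and 1.30 Mb. Cacna1i, the T-type calcium channel pore, ran from 132 to 183 CPM, with medians of 155 in libraries labelled knockout and 154 in those labelled wild type. Its slope on Csnk1e within sides was -0.27 (SE 0.37, edgeR adjusted p 0.693). Cacng2, also called stargazin, an escort of AMPA receptors, ran from 36.4 to 51.9 CPM and had a slope of 0.09 (SE 0.35, edgeR adjusted p 0.904). Neither gene was called on the labels or on Csnk1e.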

How the data were processed

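RNA of 16 mice was sequenced on 4 lanes each. The authors deposited raw counts of reads for each gene, in 64 files that each hold 1 lane of 1 mouse. Tools named by the submitters' processing notes, without roles, are HTSeq 0.6.1p1, TopHat2 2.0.0, FastQC 0.10.1 and edgeR 2.14, with mm10 as the build. The labels state neither the annotation nor how strand was used in counting. By GENCODE M21, 33 of the 112 genes share exon sequence with a gene on the other strand and 3 with one on the same strand.

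The 5 summary rows of each file were left out. Counts of the lanes of a mouse varied as counting error does (chi-square per degree of freedom 1.00 to 1.03) and were summed. Nothing states that mice of a label came from separate litters, so p-values measure the spread between these mice. The set was chosen on CPM of summed lanes, and CPM in the text use TMM-scaled library totals. Tests were two-sided quasi-likelihood F tests (edgeR 4.0.16, R 4.3.3) on 15446 genes kept by filterByExpr, which held all 112, with Benjamini-Hochberg adjustment over all of them. Terms were the label, log2 CPM of Ppp1r1b with a prior count of 2, or log2 CPM of Csnk1e with the side of its gap. A list score is the mean log2 CPM of the list's genes, centred per gene. Permutation tests of single coefficients were exact. The fits were also run on simulated counts, with genes drawn independently and a single slope on Csnk1e across its gap. Such counts lack the variation shared between genes, so they do not check the error of the calls in these data. Reads carry no molecular identifiers, so the spread between mice, not counting error, is the error given. Alternatives used DESeq2 1.42.0, other scalings and filters, left-out mice, single flow cells and covariates.

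Exon lengths are the union of exons in GENCODE M21 on GRCm38, matched by symbol for 111 genes and by a RefSeq synonym for Scn2a1. The members and lists were chosen with earlier results of these data known. Genes named with values were the 25 highest per kb, the 5 nearest the threshold on each side, the 8 with the smallest p on the label, the 10 steepest called slopes on Ppp1r1b in each direction, the 4 smallest p on Csnk1e, the 5 largest and 5 smallest spreads relative to the trend, genes within 5 Mb of Csnk1e, and the leading genes of each list. Values of some members are not reported here, though all 112 are in the counts. Other members are named to complete a family, chosen after their values were seen.

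Mouse numbers in the labels occur under both labels but do not pair the mice. The correlation of deviations within a number ran from -0.338 to 0.0952.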

Additional observations from a re-analysis of the deposited data

Results flagged for a closer look

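Of 186 groups of 8 libraries examined, one for each named gene and label, 14 had a highest or lowest library set apart from the other 7 by more than Dixon's 95% critical value. Chance flags about 1 in 20 such groups. Among the channel genes, Cacng2 was low at 36.4 CPM in labelled knockout 6 and Kcnu1 low at 3.41 CPM in labelled knockout 3. Kcnk12 was high at 2.95 CPM in labelled knockout 7, Hcn2 at 198 CPM in labelled wild type 8 and Scn3b at 176 CPM in labelled wild type 5.

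The other flags were in 2 libraries. In labelled knockout 1 and labelled wild type 7 respectively, Ttr stood at 1482 and 2147 CPM, Clic6 at 35.2 and 51.1, Kcnj13 at 14.5 and 27.0 and Kcne2 at 8.91 and 15.5. Zic1 stood at 16.5 CPM in labelled knockout 1.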

How the results depend on the processing

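The set held 118 genes at a threshold of 0.5 CPM and 105 at 2 CPM, and 24 of the 25 highest genes per kb were shared when the longest transcript gave the length. No channel gene was called on the label under any alternative run. On Ppp1r1b, where 23 genes rose and 20 fell, scaling, filters, DESeq2, single flow cells, the label or the library number as a covariate left both counts within 1.5 times. Rising genes fell to 13 in labelled knockout mice alone, with 14 falling, where 4.29% of all genes were called. They fell to 7 with 5 falling in labelled wild-type mice alone, where 3.64% were called. They fell to 12 with 8 falling without the 2 mice farthest from the median of Ppp1r1b, where 6.53% of all genes were called. With the cortical score as a covariate they fell to 4 with 0 falling, where 0.589% were called. In that fit 39 of 43 slopes kept their sign. That of Kcnj6 turned to 0.05, of Kcnh1 to 0.06, of Kcnmb4 to 0.09 and of Kcnk3 to 0.47. Leaving out each mouse gave 15 to 25 rising and 15 to 24 falling genes, where 9.45% to 19.2% of all genes were called.

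On Csnk1e within sides 23 rose and 18 fell. Leaving out labelled knockout 1 and labelled wild type 7 gave 15 and 19, where 6.08% of all genes were called. Flow cell 2 alone gave 15 and 2 (4.64% of all genes), and flow cell 1 alone gave 19 and 22 (9.3%). With log2 Ppp1r1b as a covariate the counts were 0 and 0 (0.181%). Leaving out each mouse gave 15 to 26 rising and 4 to 19 falling genes, where 6.05% to 13.7% of all genes were called. The cause of these changes was not tested.

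The mouse numbers share only a number. With the replicate block 16 genes rose and 9 fell on Ppp1r1b, where 6.97% of all genes were called. On Csnk1e 14 rose and 10 fell, where 5.56% of all genes were called, and none was called on the label. In 0 of 8 numbers did a library correlate best with its own number. Genes near 1 CPM, such as Cacng1 and Kcng2, rest on few reads, and depth limits what can be said of them.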
